A study of Mus musculus with 12 samples.

Results

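The 10 genes described here encode 7 matrix metalloproteinases, Mmp2, Mmp3, Mmp9, Mmp11, Mmp12, Mmp13 and Mmp14, and 3 tissue inhibitors of metalloproteinases, Timp1, Timp2 and Timp3. They were listed by name, as members of a protease and inhibitor family, out of the 22195 genes to which the deposited transcript counts could be summed. The list was chosen with earlier results of these data known. All 10 passed the filter on low counts and were among the 13478 genes tested. RNA of whole tumours was sequenced after ribosomal RNA was depleted. The tumours grew from YUMM2.1 cells, an established mouse melanoma line, placed under the skin of C57BL/6J mice with an intact immune system. The 4 groups had 3 libraries each: anti-B7-H3 and anti-PD1 antibodies in combination, anti-B7-H3 alone, anti-PD1 alone, and an isotype control antibody, all given from a tumour volume of 20 to 50 mm3 on. B7-H3 is a checkpoint ligand found on many tumour and stromal cells, and PD1 is an inhibitory receptor of activated T cells. All 12 libraries share the same cell line and mouse strain. The labels number the libraries but do not say that each came from a mouse of its own, so the p-values measure the spread between these libraries, which may be technical.

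Matrix metalloproteinases are zinc-dependent enzymes that are made as latent precursors and cut collagens, elastin, proteoglycans and many cytokines and receptors outside the cell. The TIMPs are small secreted proteins that occupy the active site of these enzymes and so hold them in check. In tumours most of the RNA of this family is known to come from fibroblasts, macrophages and other host cells, and the enzymes are best known for opening the matrix for invasion, for vessel growth and for leukocyte entry. RNA levels do not measure the active enzyme, since activation and inhibition take place after translation.

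Mmp3, Mmp12 and Mmp13 lie in a gene cluster on chromosome 9 and are classic targets of the factor AP-1, a dimer of Fos and Jun proteins, so the promoter windows of these 3 genes are shown. The sequences are RefSeq's, build GRCm38.p6, plus strand, and span 250 bases before to 50 after a listed start. Capitals mark the AP-1 letters TGANTCA.
Mmp3 chr9:7445572-7445871: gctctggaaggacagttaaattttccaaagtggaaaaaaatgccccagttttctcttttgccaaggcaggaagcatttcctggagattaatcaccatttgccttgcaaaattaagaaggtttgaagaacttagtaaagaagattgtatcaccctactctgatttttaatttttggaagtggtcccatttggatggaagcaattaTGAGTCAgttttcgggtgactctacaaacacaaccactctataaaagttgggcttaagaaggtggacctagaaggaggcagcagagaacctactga
Mmp12 chr9:7347124-7347423: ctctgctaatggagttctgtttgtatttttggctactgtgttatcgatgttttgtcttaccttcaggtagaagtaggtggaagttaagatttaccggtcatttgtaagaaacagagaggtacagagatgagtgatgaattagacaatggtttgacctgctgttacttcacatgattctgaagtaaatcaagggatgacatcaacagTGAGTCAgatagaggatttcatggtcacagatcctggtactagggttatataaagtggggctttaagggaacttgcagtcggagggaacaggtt
Mmp13 chr9:7272264-7272563: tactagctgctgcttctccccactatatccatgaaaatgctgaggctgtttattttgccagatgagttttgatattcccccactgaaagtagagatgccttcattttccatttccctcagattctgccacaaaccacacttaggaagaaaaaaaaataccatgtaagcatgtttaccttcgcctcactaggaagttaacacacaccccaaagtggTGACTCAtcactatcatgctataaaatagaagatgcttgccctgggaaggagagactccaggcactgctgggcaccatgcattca
The Mmp12 window belongs to the further downstream of its 2 listed starts and lies inside the annotated gene. The first base of the AP-1 letters stood at -46 from the listed start in Mmp3, at -44 in Mmp12 and at -35 in Mmp13. The TATA letters TATAAA stood downstream of them in each window, at -7, 4 and -16, and the motifs did not overlap. Both strands were searched for both motifs. Of 9 windows that matched 8 of the members by symbol, these 3 held AP-1 letters and TATAAA, and those of Mmp11, Mmp14, Timp1, Timp2, Timp3 and the upstream Mmp12 start held neither. Of all 32851 promoter windows of this length, 7.81% held TGANTCA and 13.6% held TATAAA. Among the 10 Mmp genes of the chromosome 9 cluster 8 held the AP-1 letters and 9 the TATA letters, against 0 and 1 of 12 other Mmp and Timp genes with a window. Mmp2 and Mmp9 had no window and are not among those 12, and variants of TGANTCA were not searched. A match describes the letters in the window and does not show that a factor binds there.

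Total estimated reads per library were 4409772 to 5014931 in the combination, 3593110 to 3937727 under anti-B7-H3, 8099713 to 10527704 under anti-PD1 and 15585622 to 21298142 in isotype control libraries. A small set of 12 repeat-like predicted genes took 31.4% ± 2.25 of reads in the combination, 0.145% ± 0.0679 under anti-B7-H3, 72.0% ± 2.97 under anti-PD1 and 92.5% ± 1.91 in isotype control libraries (SD, n = 3 each). Reads outside them numbered 2902813 to 3493133, 3570258 to 3918163, 2530099 to 2793362 and 1340782 to 1512937 in the same order of groups. The background, taken as the reads per kilobase on 1553 chemoreceptor genes that tumours should not express, was 0.697 ± 0.0666, 0.0947 ± 0.0052, 5.25 ± 0.218 and 7.31 ± 0.505 in that order. Since these features separate the 4 groups as the antibodies do, library composition and treatment cannot be told apart. Values below are CPM, read counts over the library size, after TMM scaling, a library factor from edgeR that centres the bulk of the genes. That factor was 2.31 to 2.44 in the combination, 3.39 to 3.41 under anti-B7-H3, 0.761 to 0.944 under anti-PD1 and 0.118 to 0.209 in isotype control libraries. Scaled library sizes were thus 12098671 to 13354210 under anti-B7-H3 and 2499695 to 3234699 in isotype control libraries. All CPM values and fold changes below rest on this large scaling. The melanocyte markers that should mark the tumour line were low: the 7 genes summed to 44.4 to 46.8 CPM in the combination, 25.5 to 28.8 under anti-B7-H3, 83.1 to 86.9 under anti-PD1 and 90.6 to 107 in isotype control libraries, and Tyrp1 and Dct had no read in anti-B7-H3 libraries.

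By group means, RNA of 9 of the 10 genes was most abundant in libraries under anti-B7-H3 alone, next in the combination, then under anti-PD1. It was least abundant under isotype control. Mmp11 departed from this order of the group means. The steepest differences of anti-B7-H3 and of the combination from isotype control were those of the macrophage elastase Mmp12, the collagenase Mmp13 and the gelatinase Mmp9. All 3 TIMPs had that order too. A gene was called where the adjusted p (edgeR quasi-likelihood F test, Benjamini-Hochberg over all genes tested) was under 0.05. Not every step of the order was called. Of these 9 genes, Mmp2, Mmp3, Mmp9 and Timp3 were not called between anti-PD1 and isotype control. With the background subtracted that step turned direction for Mmp2, Mmp9 and Timp3. Mmp3 and Mmp14 were not called between the combination and anti-PD1, nor Mmp3 between the combination and anti-B7-H3. The share of all genes with this order was not counted.

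**Figure D1:**
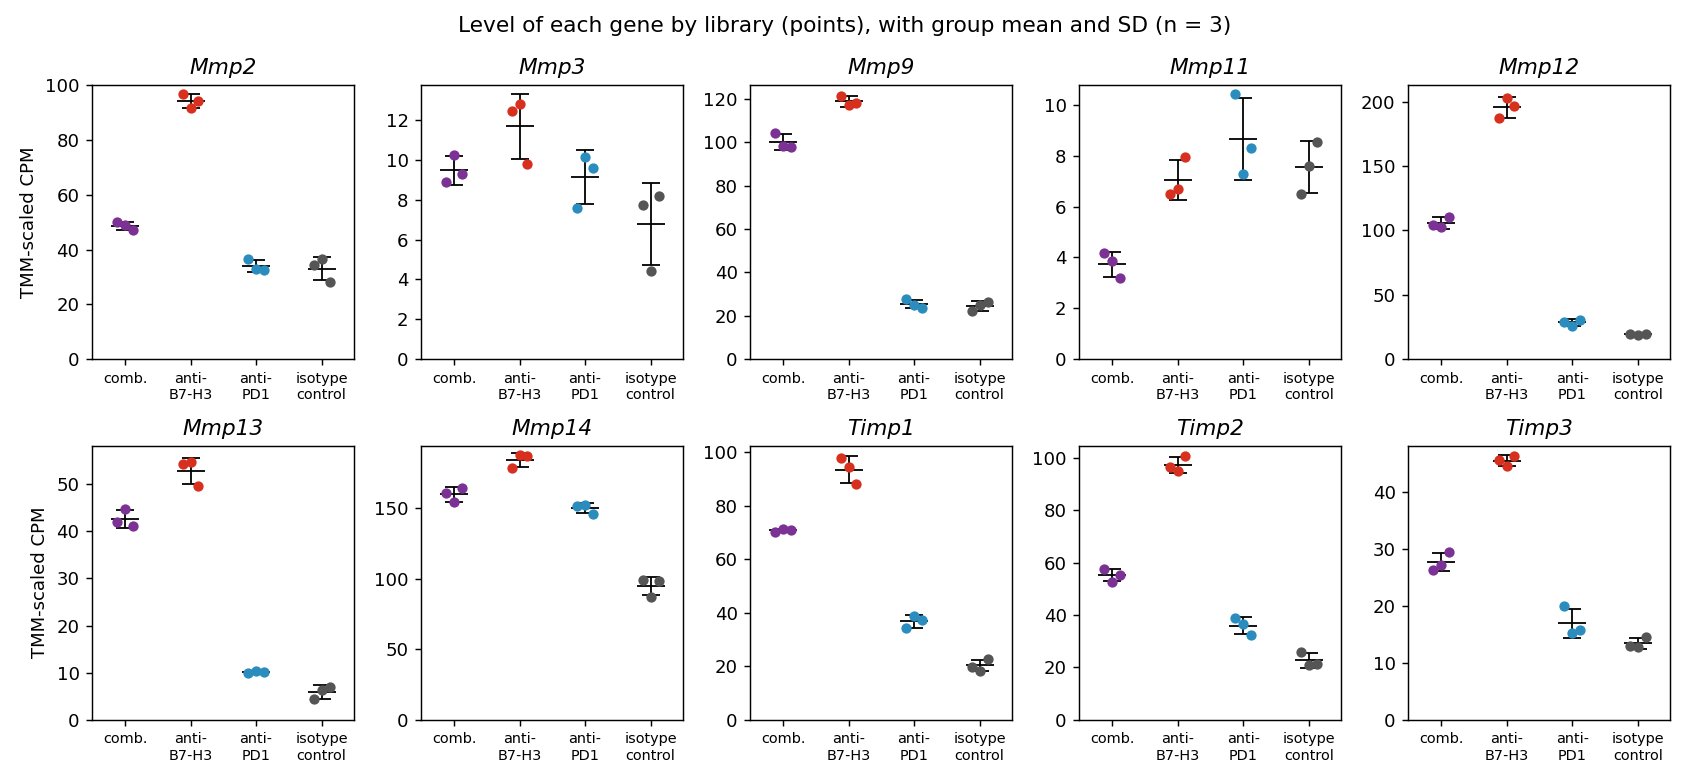
Level of each of the 10 genes in TMM-scaled CPM (vertical axis, from 0) in the 12 libraries, by group (horizontal axis). Points are libraries, the long bar is the mean and the short bars are the SD (n = 3). For Mmp12 the anti-B7-H3 libraries sit between 187 and 203 CPM and the isotype control libraries between 18.4 and 19.8, while for Mmp11 the combination libraries, at 3.20 to 4.17 CPM, are the lowest.

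Anti-B7-H3 against isotype control, the comparison that asks what B7-H3 blockade alone does, had 9 of the 10 genes higher and 0 lower, where 30.8% of all genes were called higher and 33.3% lower. Their median log2 fold change was 1.92, against -0.04 over all genes tested. The combination against isotype control had 8 genes higher and 1 lower (all genes: 27.8% higher, 29.5% lower), with a median of 1.16 against -0.01. Anti-PD1 against isotype control had 5 genes higher and 0 lower (all genes: 17.5% higher, 20.9% lower), with a median of 0.48 against -0.04. With the background subtracted that count was 2 higher and 1 lower, where 1859 of all 12925 genes tested were higher and 1152 lower. It was 10 higher with reads outside the repeat-like genes as library size, where 6860 of all 13466 genes were higher and 1480 lower. These 3 comparisons share the isotype control libraries.

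Between the antibody groups, the combination against anti-B7-H3 had 0 genes higher and 9 lower (all genes: 19.8% higher, 19.1% lower), with a median of -0.56 against 0.01. The combination against anti-PD1 had 7 higher and 1 lower (all genes: 23.1% higher, 23.4% lower), with a median of 0.66 against -0.01. Anti-B7-H3 against anti-PD1 had 9 higher and 0 lower (all genes: 30.4% higher, 31.6% lower), with a median of 1.42 against -0.01. The interaction asks whether the combination differs from the sum of the 2 single antibodies' log2 effects: 0 genes were higher and 10 lower than that sum (all genes: 19.1% higher, 17.3% lower), with a median of -1.08 against 0.04. The depth, the background and the marker sums of the libraries move with these comparisons, and their part in the counts was not tested.

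**Figure D2:**
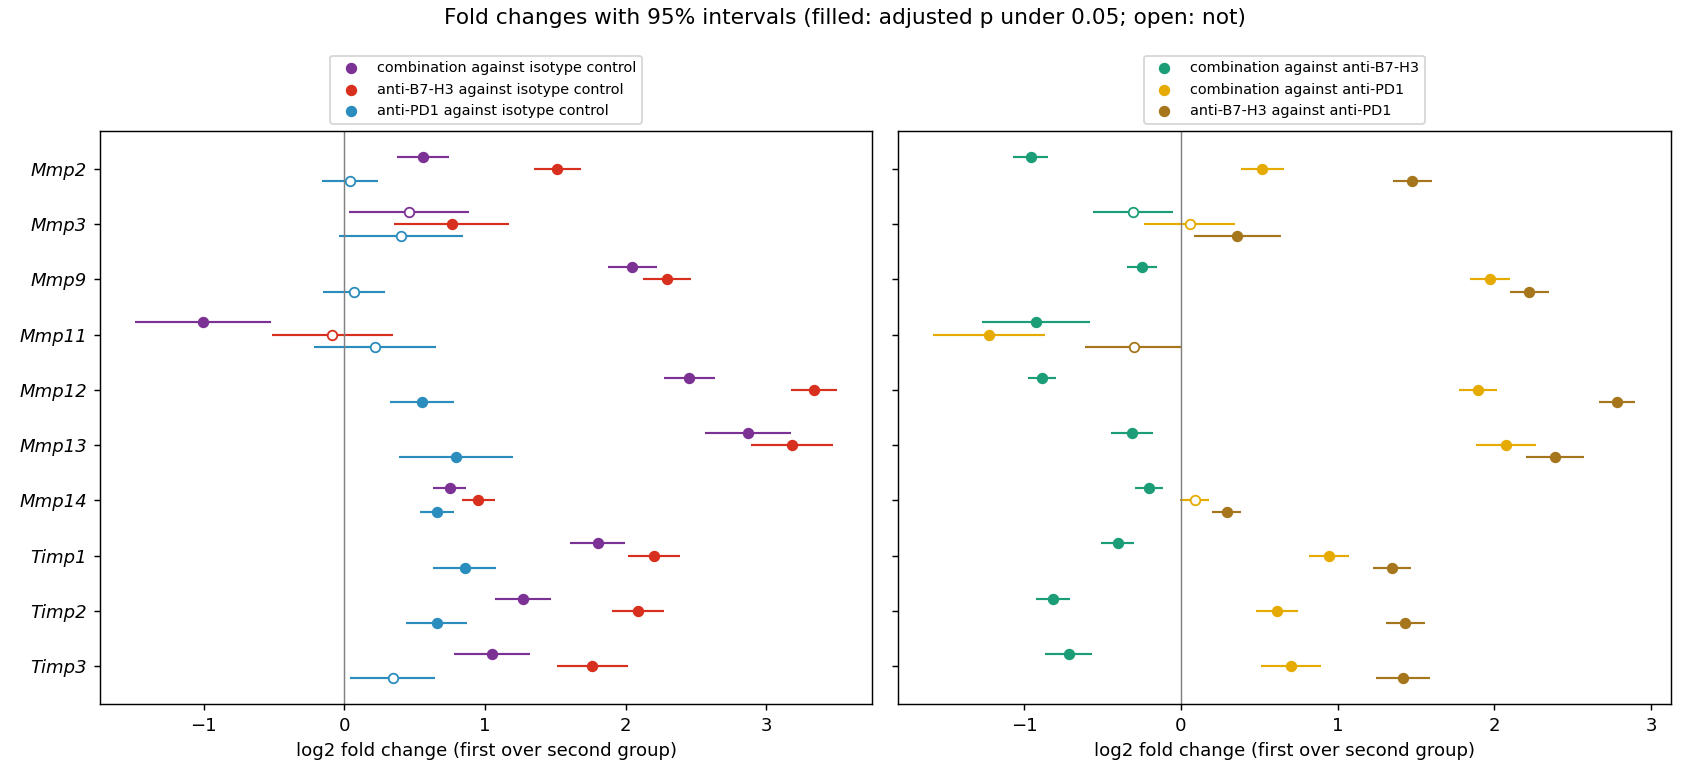
Log2 fold change (horizontal axis, first-named group over second) of the 10 genes (rows) with 95% intervals, against isotype control on the left and between antibody groups on the right. Filled points passed the test and open points did not. Mmp12 reaches 3.34 under anti-B7-H3, and the combination against anti-B7-H3 lies left of 0 for all 10 genes, with Mmp3 open.

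Mmp12 (chr9:7344381-7369499, GRCm38), the metalloelastase that macrophages secrete, had the highest fold change of the 10 genes under anti-B7-H3 against isotype control. It had 104, 102 and 111 CPM in combination libraries, 187, 203 and 197 under anti-B7-H3, 29.2, 25.6 and 30.4 under anti-PD1 and 19.8, 18.4 and 19.7 in isotype control libraries. No group overlapped another. The log2 fold change against isotype control was 3.34 ± 0.083 under anti-B7-H3 (SE; 10.1-fold; adjusted p = 1.29e-46, edgeR), 2.45 ± 0.0905 in the combination (5.47-fold; 9.39e-36) and 0.55 ± 0.115 under anti-PD1 (1.47-fold; 6.42e-05). The combination was 0.541 times the level under anti-B7-H3 (log2 -0.89 ± 0.045, adjusted p = 1.47e-27, edgeR) and 3.73 times that under anti-PD1. With the background subtracted the anti-PD1 difference from isotype control did not pass the test (log2 0.23, adjusted p = 0.214, edgeR), nor with an offset for effective transcript length (0.37, 0.154).

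The summed level of the 10 macrophage markers had the same order of groups as Mmp12. They summed to 1210 to 1220 CPM in the combination, 2430 to 2460 under anti-B7-H3, 420 to 439 under anti-PD1 and 304 to 330 in isotype control libraries, with none at 0. All 10 passed the test as higher under anti-B7-H3 than under isotype control, with a median log2 fold change of 2.82 (all genes: 30.8% higher, median -0.04). All 10 were also higher in the combination than in isotype control, with a median of 1.78 (all genes: 27.8% higher, median -0.01). Under anti-PD1 5 were higher, 2 were lower and 3 did not pass (all genes: 17.5% higher, 20.9% lower). In bulk RNA, more cells of a type and more RNA per cell cannot be told apart, and the part of macrophage number in the Mmp12 result was not tested.

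Mmp13 (chr9:7272514-7283331), the main collagenase of mouse connective tissue, followed the same order of groups at a lower level. It had 42.0, 44.7 and 41.2 CPM in combination libraries, 54.2, 54.6 and 49.7 under anti-B7-H3, 9.84, 10.3 and 10.1 under anti-PD1 and 4.33, 6.40 and 7.06 in isotype control libraries. The groups did not overlap. Against isotype control the log2 fold change was 3.18 ± 0.146 under anti-B7-H3 (adjusted p = 1.45e-30, edgeR), 2.87 ± 0.153 in the combination (9.88e-27) and 0.79 ± 0.204 under anti-PD1 (0.00121). The isotype control value rests on 49 reads over 3 libraries, where the background alone would give 31.1. Without isotype control replicate 1 the anti-PD1 difference was 0.57 and missed the threshold (adjusted p = 0.0626, edgeR), and with the background subtracted it was 1.52 (0.000448). The combination stood below anti-B7-H3, a call lost with the effective-length offset (-0.32, adjusted p = 0.0653, edgeR).

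**Figure D3:**
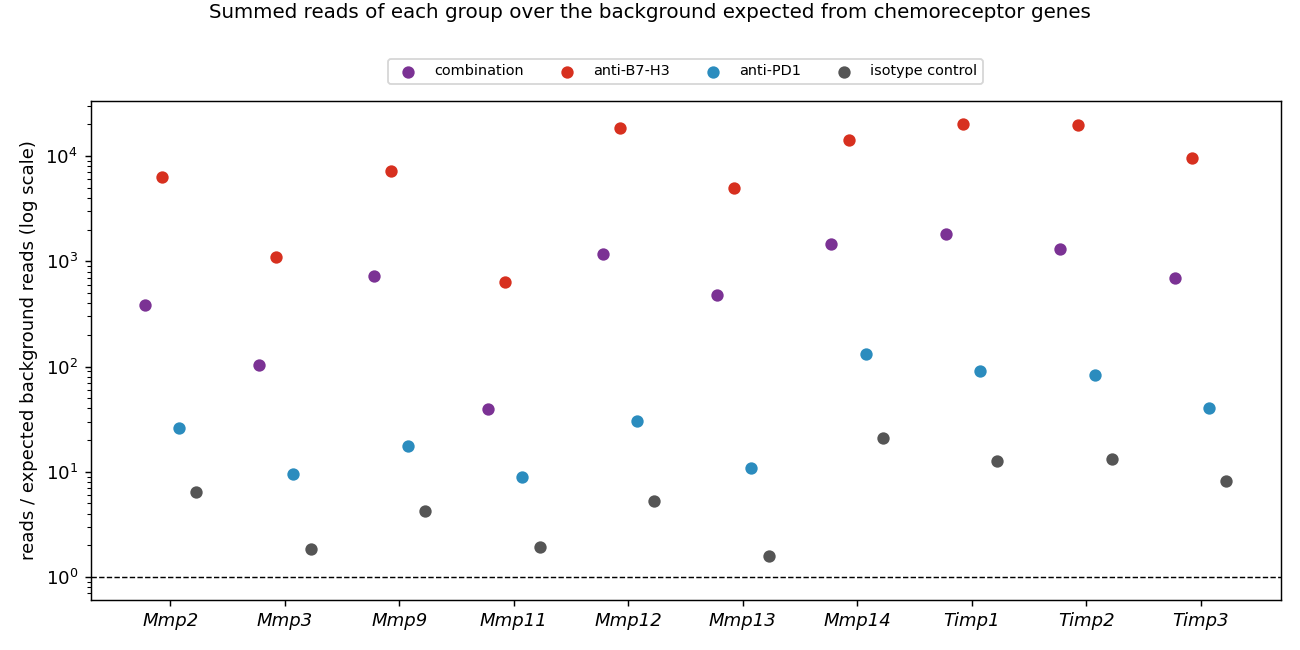
Reads of each gene summed over the 3 libraries of a group, divided by the reads that the background of those libraries would give a gene of its length (vertical log axis; the dashed line marks 1). In isotype control libraries Mmp13, Mmp3 and Mmp11 stand at 1.58, 1.84 and 1.94 times the background, while in anti-B7-H3 libraries the 10 genes stand at 638 times or more.

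The gelatinases Mmp9 and Mmp2, which cut denatured collagen and basement membrane collagen, shared the order of the group means. Mmp9 (chr2:164940780-164955850), a product of macrophages and neutrophils, had 105, 98.1 and 97.7 CPM in combination libraries, 121, 117 and 118 under anti-B7-H3, 27.5, 25.1 and 23.6 under anti-PD1 and 21.9, 24.8 and 26.4 in isotype control libraries. The first 2 groups were high and apart, and the anti-PD1 and isotype control libraries overlapped. Its log2 fold change against isotype control was 2.29 ± 0.0843 under anti-B7-H3 (adjusted p = 3.31e-36, edgeR) and 2.05 ± 0.0868 in the combination (3.13e-32). Under anti-PD1 it was 0.07 with a 95% interval of -0.15 to 0.29, which did not pass the test (adjusted p = 0.656, edgeR). The combination stood at 0.842 times the anti-B7-H3 level (log2 -0.25 ± 0.0477). With the effective-length offset that call was lost (-0.41, adjusted p = 0.393, edgeR). With reads outside the repeat-like genes as library size the anti-PD1 value was 0.63 and passed (adjusted p = 1.09e-05, edgeR). The median of all genes was then 0.52.

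Mmp2 (chr8:92827291-92853420), a fibroblast product that Mmp14 activates, had 50.0, 48.9 and 47.0 CPM in combination libraries, 96.7, 91.9 and 94.2 under anti-B7-H3, 36.4, 32.8 and 32.4 under anti-PD1 and 34.3, 36.4 and 28.2 in isotype control libraries. Only anti-B7-H3 was far from the rest, and the anti-PD1 and isotype control libraries overlapped. The log2 fold change against isotype control was 1.52 ± 0.0832 under anti-B7-H3 (adjusted p = 2.64e-26, edgeR) and 0.56 ± 0.0916 in the combination (2.95e-07). The combination was 0.515 times the anti-B7-H3 level (log2 -0.96 ± 0.0558, adjusted p = 2.62e-24, edgeR), the lowest such ratio among the 10 genes. With the background subtracted the value was 0.93 under anti-B7-H3 (adjusted p = 1.53e-09, edgeR), 0.00 in the combination (0.999) and -0.35 under anti-PD1 (0.0202). With reads outside the repeat-like genes as library size the anti-PD1 value was 0.60 and passed (adjusted p = 2.87e-06, edgeR), beside a median of 0.52 over all genes.

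The neutrophil list bears on Mmp9, as neutrophils store that enzyme in granules. Its 10 markers summed to 11.7 to 13 CPM in the combination, 31.6 to 34.9 under anti-B7-H3, 12.4 to 14.8 under anti-PD1 and 30.0 to 31.2 in isotype control libraries, where 257 reads stood beside 196 of expected background. Elane and Ngp were at 0 in combination libraries, and Mpo, Elane and Ngp in anti-B7-H3 libraries. Only 3 of the 10 markers passed the filter on low counts. Under anti-B7-H3 1 of the 3 was higher than in isotype control and 1 was lower (all genes: 30.8% higher, 33.3% lower).

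Of the stromelysin-type proteases, Mmp3 (chr9:7445822-7455975) cuts proteoglycans and activates other latent metalloproteinases. It had 8.89, 10.3 and 9.27 CPM in combination libraries, 12.4, 12.8 and 9.81 under anti-B7-H3, 7.58, 10.2 and 9.62 under anti-PD1 and 7.73, 4.40 and 8.17 in isotype control libraries. The antibody groups overlapped with one another, and the combination and anti-B7-H3 libraries stood above isotype control. It rose under anti-B7-H3 against isotype control (log2 0.76 ± 0.204, adjusted p = 0.000848, edgeR) and against anti-PD1 (0.36 ± 0.139, 0.0201). The second call was lost without anti-B7-H3 replicate 1 (0.33), anti-B7-H3 replicate 2 (0.31) or anti-PD1 replicate 1 (0.22). The combination missed the threshold against isotype control (0.46, 95% interval 0.03 to 0.89, adjusted p = 0.0598, edgeR) and passed it without combination replicate 1 (0.56) or 3 (0.53). Against anti-B7-H3 it missed it too (-0.30, interval -0.56 to -0.05, adjusted p = 0.0523), and passed without anti-B7-H3 replicate 3 (-0.40). With reads outside the repeat-like genes as library size, the combination (1.22) and anti-PD1 (0.96) both passed against isotype control. The medians of all genes were then 0.75 and 0.52. With the background subtracted the call of anti-B7-H3 against anti-PD1 was lost (0.25, adjusted p = 0.255, edgeR).

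Mmp11 (chr10:75923222-75936496), which furin activates inside the cell and which fibroblasts near carcinoma cells are known to make, was the exception among the listed genes. It had 4.17, 3.85 and 3.20 CPM in combination libraries, 6.51, 6.70 and 7.97 under anti-B7-H3, 10.4, 7.28 and 8.30 under anti-PD1 and 6.49, 7.60 and 8.54 in isotype control libraries. The combination libraries were the lowest, and the other 3 groups overlapped. It fell in the combination against anti-PD1 (log2 -1.22 ± 0.179, adjusted p = 2.59e-08, edgeR), against isotype control (-1.01 ± 0.242, 0.000271) and against anti-B7-H3 (-0.92 ± 0.172, 8.81e-06). Under anti-B7-H3 against isotype control it was -0.09 (interval -0.52 to 0.35) and under anti-PD1 0.22 (interval -0.22 to 0.65), neither past the test. Isotype control holds 63 reads beside an expected background of 32.4, and the call of the combination against isotype control was lost with the background subtracted (-0.77, adjusted p = 0.0791, edgeR), with reads outside the repeat-like genes as library size (-0.25, 0.339) and with the effective-length offset (-1.08, 0.218). That offset also ended the calls against anti-PD1 (-0.37, 0.694) and anti-B7-H3 (-0.45, 0.67). Exons of Mmp11, untranslated parts included, overlap those of Chchd10 on the other strand. Chchd10 had 43 reads in the combination, 114 under anti-B7-H3, 19 under anti-PD1 and 14 in isotype control libraries. Transcript lengths here are coding lengths, and overlap of the coding parts was not checked. Without that and a stated strand setting, it is not known whether reads of these genes mix.

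Mmp14 (chr14:54431612-54445364), the membrane-anchored protease that cuts collagen at the cell surface and activates Mmp2, was the protease with the highest level per kilobase in 3 of the 4 groups. It had 161, 154 and 164 CPM in combination libraries, 178, 188 and 187 under anti-B7-H3, 152, 153 and 146 under anti-PD1 and 98.9, 87.2 and 98.4 in isotype control libraries. Isotype control was low, and the 3 antibody groups stood close together without overlap. The log2 fold change against isotype control was 0.75 ± 0.0592 in the combination (adjusted p = 3.26e-18, edgeR), 0.95 ± 0.0582 under anti-B7-H3 (7.19e-24) and 0.66 ± 0.0605 under anti-PD1 (1.2e-14). The combination did not pass the test against anti-PD1 (0.09, interval -0.00 to 0.18, adjusted p = 0.109, edgeR), and passed it without combination replicate 2 (0.15). These values depend on the processing. With the background subtracted they were 0.02 (adjusted p = 0.835, edgeR) in the combination, 0.19 (0.00358) under anti-B7-H3 and 0.14 (0.0654) under anti-PD1. That fit also recomputed the filter and the TMM factors, and it put the combination below anti-PD1 (-0.12, 0.02). With reads outside the repeat-like genes as library size the combination stood above anti-PD1 (0.29, 0.000118), where the median of all genes was 0.20. Isotype control held 803 reads of Mmp14 beside an expected background of 38.3, and the cause of these changes was not tested.

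The 3 inhibitors had the same order of groups as most of the proteases. Timp1 (chrX:20870166-20874735), a secreted inhibitor induced by cytokines, had 70.0, 71.3 and 71.0 CPM in combination libraries, 97.7, 94.6 and 88.0 under anti-B7-H3, 34.1, 38.9 and 37.2 under anti-PD1 and 19.8, 18.4 and 22.7 in isotype control libraries. No group overlapped another. Its log2 fold change against isotype control was 1.80 ± 0.0976 in the combination (adjusted p = 2.59e-26, edgeR), 2.20 ± 0.0932 under anti-B7-H3 (1.19e-32) and 0.85 ± 0.111 under anti-PD1 (1.84e-09). With the background subtracted the anti-PD1 value was 0.37 (adjusted p = 0.0195, edgeR).

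Timp2 (chr11:118301069-118355740), which at the cell surface joins Mmp14 in activating Mmp2, had 57.6, 52.7 and 55.5 CPM in combination libraries, 96.5, 94.8 and 101 under anti-B7-H3, 39.0, 36.6 and 32.4 under anti-PD1 and 26.0, 20.8 and 21.2 in isotype control libraries. The groups did not overlap. The combination stood at 0.568 times the anti-B7-H3 level (log2 -0.82 ± 0.0553, adjusted p = 6.09e-21, edgeR) and at 2.42 times isotype control (1.27 ± 0.1, 2.88e-18). Under anti-B7-H3 the log2 fold change against isotype control was 2.09 ± 0.0919 and under anti-PD1 0.66 ± 0.11, the second of which did not pass with the background subtracted (0.17, adjusted p = 0.286, edgeR).

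Timp3 (chr10:86300372-86349506), which binds to the matrix and also inhibits Adam17, had 26.4, 27.3 and 29.4 CPM in combination libraries, 45.6, 44.6 and 46.4 under anti-B7-H3, 19.9, 15.2 and 15.8 under anti-PD1 and 13, 12.8 and 14.5 in isotype control libraries. The 4 groups did not overlap, though anti-PD1 and isotype control lay close. It rose in the combination (log2 1.05 ± 0.136, adjusted p = 5.98e-10, edgeR) and under anti-B7-H3 (1.76 ± 0.126, 1.47e-20) against isotype control. Under anti-PD1 it was 0.34 (interval 0.04 to 0.65, adjusted p = 0.0649, edgeR), and passed the test without anti-PD1 replicate 2 (0.41). It also passed with reads outside the repeat-like genes as library size (0.90), beside a median of 0.52 over all genes. Its exons, untranslated parts included, overlap those of Syn3 on the other strand, and overlap of the coding parts was not checked. Syn3 had 8 reads in the combination, 10 under anti-B7-H3, 44 under anti-PD1 and 35 in isotype control libraries.

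Fibroblast markers bear on Mmp2, Mmp14 and the TIMPs, which fibroblasts are known to make. The 10 genes summed to 4120 to 4160 CPM in the combination, 6430 to 6580 under anti-B7-H3, 3530 to 3730 under anti-PD1 and 1830 to 2090 in isotype control libraries, with none at 0. Against isotype control 10 of 10 passed as higher under anti-B7-H3 (median log2 1.54), 7 of 10 in the combination (0.80) and 5 of 10 under anti-PD1, where 1 was lower (0.33). Of all genes tested 30.8%, 27.8% and 17.5% were higher in that order, and 20.9% were lower under anti-PD1. Markers of other tissues moved as well: the 6 skeletal muscle genes summed to 101 to 103 CPM in the combination, 0.225 to 0.579 under anti-B7-H3, 24.9 to 29.9 under anti-PD1 and 33.4 to 38.8 in isotype control libraries, and Myh4 was at 0 in anti-B7-H3. The 6 keratinocyte genes summed to 1.80 to 2.69, 0.00 to 0.15, 23.2 to 32.0 and 54.6 to 85.2 CPM in the same order, with Krt5, Krt14, Krt1, Flg and Lor at 0 in anti-B7-H3. The part of these cell types in the results was not tested.

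Per length, the make-up of the protease pool differed between the groups. A level per kilobase was the CPM over the effective length of the longest coding transcript, and a share within a library does not depend on its scaling. Mmp14 made up 33.0% ± 0.603 of the summed level of the 7 proteases in the combination, 26.5% ± 0.451 under anti-B7-H3, 55.7% ± 1.21 under anti-PD1 and 49.4% ± 1.88 in isotype control libraries (SD, n = 3 each). Mmp12 took 27.6% ± 0.896, 35.5% ± 0.889, 13.3% ± 1.15 and 12.7% ± 0.173 in the same order. Mmp12 thus led the pool under anti-B7-H3 and Mmp14 led it in the other 3 groups. The share of Mmp9 was 16.2% ± 0.603, 13.3% ± 0.451, 7.34% ± 0.425 and 9.91% ± 0.931, and that of Mmp2 8.73% ± 0.318, 11.8% ± 0.5, 10.9% ± 0.462 and 15% ± 2.42.

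**Figure D4:**
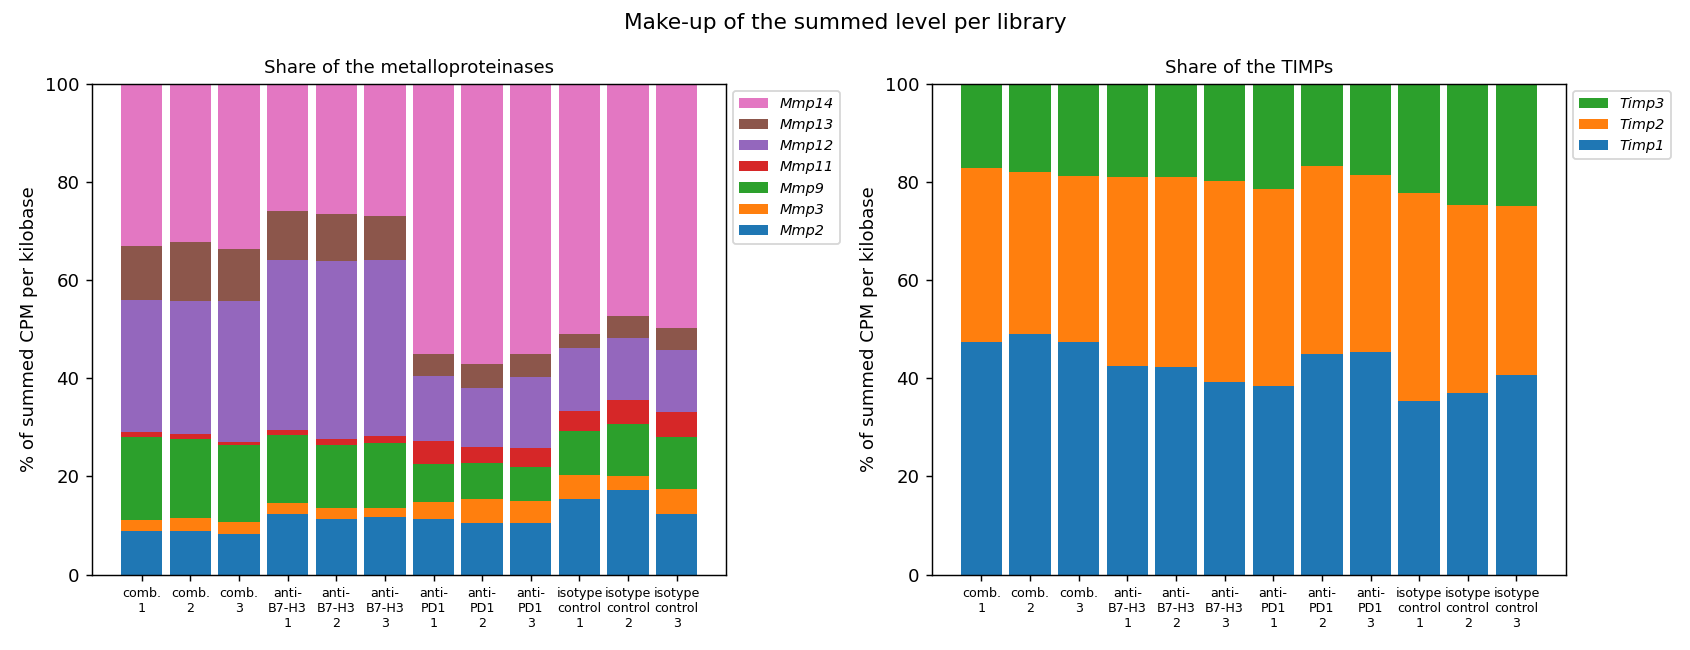
Share of each protease (left) and each TIMP (right) in the summed CPM per kilobase of its class (vertical axis, %), with a bar for every library (horizontal axis). Mmp14 fills 26.5% of the protease bar on average in anti-B7-H3 and 49.4% in isotype control libraries, and Mmp12 fills 35.5% and 12.7%.

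Summed per kilobase, the 7 proteases came to 307 ± 3.96 CPM in the combination, 441 ± 7.31 under anti-B7-H3, 171 ± 3.5 under anti-PD1 and 122 ± 4.41 in isotype control libraries. The 3 TIMPs came to 330 ± 4.85, 504 ± 7.04, 192 ± 7.99 and 120 ± 8.05 in the same order. The ratio of proteases to TIMPs was 0.930 ± 0.00451, 0.875 ± 0.0252, 0.893 ± 0.0251 and 1.01 ± 0.0348. Its group means stayed between 0.875 and 1.01 while both sums moved over a several-fold range. Single libraries ran from 0.848 under anti-B7-H3 to 1.05 in isotype control, and no test was run on the ratio. Among the TIMPs, Timp1 made up 47.9% ± 0.924 in the combination, 41.4% ± 1.82 under anti-B7-H3, 42.9% ± 3.85 under anti-PD1 and 37.7% ± 2.65 in isotype control libraries. Background reads enter these sums, most of all in isotype control libraries.

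The chromosome 9 cluster (chr9:7272514-7699585, GRCm38) holds 10 Mmp genes with 0 other genes between them, and its reads were uneven. Mmp13 had 1409 reads in the combination, 2008 under anti-B7-H3, 242 under anti-PD1 and 49 in isotype control libraries, and its neighbour Mmp12 had 3509, 7426, 681 and 163. Mmp3 had 313, 444, 218 and 58 and Mmp10, a stromelysin, 140, 172, 197 and 28, the last beside an expected background of 31.4. The other 6 had 0 to 40 reads in any group. Mmp1a, a collagenase, had 40, 14, 25 and 21 reads, and Mmp27 had 17, 20, 11 and 15. Mmp1b, between Mmp12 and Mmp3, had 7, 7, 9 and 13 reads, and the neutrophil collagenase Mmp8 had 11, 8, 16 and 13. The enamel protease Mmp20 had 2, 0, 13 and 22, and Mmp7, an epithelial matrilysin, had 0, 0, 4 and 2, with an expected background of 17.6 in isotype control. The AP-1 letters shown above for Mmp3, Mmp12 and Mmp13 also stood in the windows of Mmp1a, Mmp1b, Mmp7, Mmp10 and Mmp20. Exons of Mmp12, untranslated parts included, overlap those of Mmp1b on the other strand, and overlap of the coding parts was not checked.

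**Figure D5:**
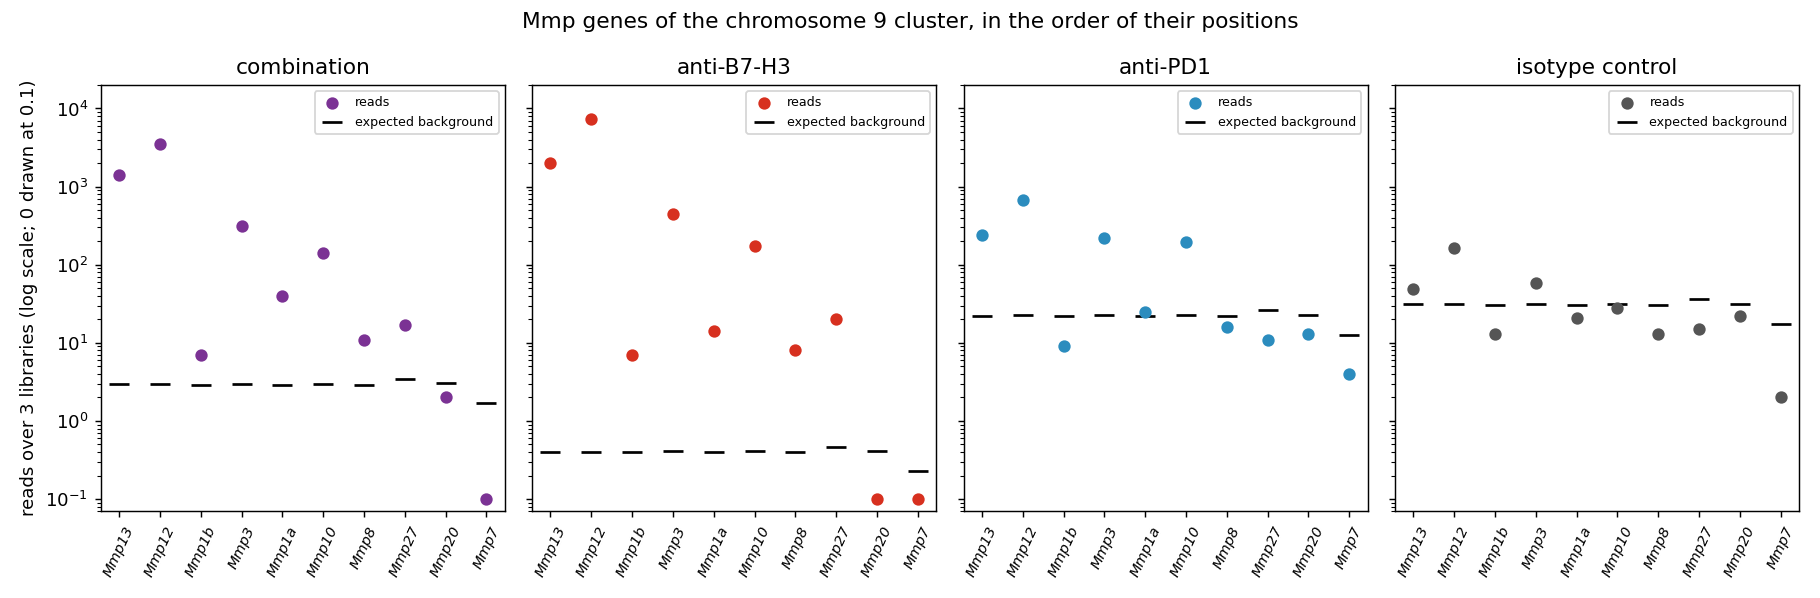
Reads of the 10 Mmp genes of the chromosome 9 cluster, summed over the 3 libraries of each group (vertical log axis; 0 is drawn at 0.1), in the order of their positions (horizontal axis). Dashes give the background expected from gene length. Mmp12, Mmp13 and Mmp3 stand above it in every group, and in anti-PD1 and isotype control libraries most other genes of the cluster lie at or below it.

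Of 16 other Mmp genes 10 were tested, and against isotype control 0 were higher and 5 lower in the combination, 3 and 5 under anti-B7-H3, and 1 and 3 under anti-PD1. Of all genes tested 27.8% were higher and 29.5% lower in the combination, 30.8% and 33.3% under anti-B7-H3, and 17.5% and 20.9% under anti-PD1. The 3 of 10 higher under anti-B7-H3 are near that share. Mmp15, a membrane-type protease of epithelia, averaged 19.6 ± 2.22 CPM in the combination, 3.94 ± 0.36 under anti-B7-H3, 41.7 ± 3.67 under anti-PD1 and 55.0 ± 5.42 in isotype control libraries (SD, n = 3 each). It fell under anti-B7-H3 against isotype control by 3.80 on the log2 scale (adjusted p = 8.61e-38, edgeR). Mmp25, a membrane-anchored protease of leukocytes, was higher under anti-B7-H3 (log2 1.35, 10.9 ± 1.05 against 4.37 ± 2.18 CPM), though isotype control had 36 reads beside a background of 40.5. Timp4 had 3, 3, 5 and 8 reads in the combination, anti-B7-H3, anti-PD1 and isotype control libraries and was not tested.

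Among activators of latent metalloproteinases, 5 of 6 tested were higher under anti-B7-H3 than under isotype control and 1 was lower, beside 30.8% and 33.3% of all genes. In the combination 4 were higher and 1 lower (all genes: 27.8% and 29.5%), and under anti-PD1 3 and 1 (17.5% and 20.9%). Plau, the urokinase that makes plasmin, averaged 38.5 ± 1.27 CPM in the combination, 64.7 ± 0.936 under anti-B7-H3, 14.7 ± 0.489 under anti-PD1 and 10.7 ± 0.565 in isotype control libraries, with a log2 fold change of 2.60 under anti-B7-H3 (adjusted p = 3.64e-31, edgeR). Plg, the plasminogen gene of the liver, had 1 read in the combination and 0 in anti-B7-H3 and was not tested. Of 5 other inhibitors 3 were higher and 1 lower under anti-B7-H3 (all genes: 30.8% and 33.3%).

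Of 14 ADAM and ADAMTS proteases, relatives that shed membrane proteins or trim proteoglycans, 7 were higher and 3 lower under anti-B7-H3 than under isotype control, beside 30.8% and 33.3% of all genes. Adam8, a leukocyte sheddase, rose to 74.4 ± 0.684 CPM under anti-B7-H3, against 9.64 ± 1.31 in isotype control (log2 2.95, adjusted p = 3.97e-34, edgeR), and Adamts9 fell to 8.98 ± 0.977 CPM, against 84.4 ± 6.11. Of 18 matrix substrates 16 were higher and 1 lower in the combination, 13 and 2 under anti-B7-H3, and 12 and 1 under anti-PD1, where the shares of all genes were 27.8% and 29.5%, 30.8% and 33.3%, and 17.5% and 20.9%. Col1a2, a chain of fibrillar collagen, averaged 787 ± 7.51 CPM in the combination, 1300 ± 5.54 under anti-B7-H3, 779 ± 31.1 under anti-PD1 and 238 ± 19.0 in isotype control libraries. Of 20 inducers and transcription factors of the family 10 were higher and 4 lower in the combination, 9 and 3 under anti-B7-H3, and 7 and 1 under anti-PD1, beside the same shares of all genes. Il1b, an inducer of Mmp genes in fibroblasts, averaged 6.65 ± 1.34 CPM in the combination, 12.2 ± 1.41 under anti-B7-H3, 2.74 ± 0.552 under anti-PD1 and 2.12 ± 1.63 in isotype control libraries, where its 17 reads are at the background of 17.8. The list holds 5 subunits of AP-1, all given here although the rule for naming genes did not pick them all, a choice made after their values were seen. Under anti-B7-H3 Junb averaged 65.6 ± 4.39 CPM, against 15.8 ± 1.42 in isotype control (log2 2.05, adjusted p = 5.95e-27, edgeR), and Fosl2 averaged 16.8 ± 1.24, against 10.1 ± 2.01 (0.73, 8.6e-05), both called higher. Fos averaged 5.21 ± 0.755 CPM under anti-B7-H3, against 11.8 ± 2.82 in isotype control, and was called lower (-1.19, adjusted p = 2.1e-07, edgeR). Jun (0.13) and Fosl1 (-0.30) did not pass the test, so the subunits did not share a direction.

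By likeness over the 12 libraries (Pearson r of log2 CPM among 12669 genes, a description across libraries that fall into 4 groups), the genes nearest to Mmp12 were Pcolce at r = 0.998, Plau at 0.998 and Ctsb at 0.998. Nearest to Mmp9 stood Vcam1 at 0.998, and nearest to Timp2 stood Lox at 0.997. Mmp13 was nearest to Plod3 at 0.992 and Mmp2 to Rgs2 at 0.992. Timp1 was nearest to Hdlbp at 0.996, Timp3 to Samhd1 at 0.993 and Mmp14 to Rnf19b at 0.994. Mmp3 had its nearest gene, Ndufa11, at 0.938, and Mmp11 had Gpnmb at 0.934. Among the listed genes, Mmp12 ran closest to Timp3 at 0.979 and Mmp13 to Mmp9 at 0.979. Mmp11 had a negative r with each of the 9 others, the lowest being -0.58 with Mmp9. All these values share the differences in depth and background between the groups.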

How the data were processed

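RNA was sequenced from 12 tumour libraries. The kit was a TruSeq total RNA kit used after depletion of ribosomal RNA, per the labels' protocols. The submitters' processing notes name FastQC 0.11.8 and build GRCm38. Neither the quantification program nor its handling of strand is given in the sources used here. The authors deposited estimated counts per transcript, with no scaling, per the file headers. Of 58083 transcripts, 57473 matched GENCODE M21, and 610 did not. Lengths are coding lengths, since 87.3% are multiples of 3.

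Counts were summed per gene and rounded. edgeR 4.0.16 (R 4.3.3) was used with TMM scaling, filterByExpr and a quasi-likelihood fit of 12 libraries with a mean per group. Adjusted p-values (Benjamini-Hochberg) cover all 13478 genes tested. Errors on log2 fold changes are standard errors. The method was run on simulated data for anti-B7-H3 against isotype control alone. It called 58 of 100 genes with an absolute log2 change of 1 and 92 of 100 with a change of 2. False calls numbered 7 among 13300 genes. The simulation held no group differences in background or repeat-like reads, so it does not bear on that feature of these libraries. The 10 genes, the other gene lists and the rule for naming (at most 2 called genes per direction of a list, by size, or any with 0 reads, and the 3 genes of highest r per member, of which the nearest are printed) were chosen with earlier results of these data known. Background was the read rate over 1553 olfactory, vomeronasal and taste receptor genes, times the coding length. Alternatives were DESeq2 1.42.0 and its size factors, no filter, a fit of the compared groups alone, an offset from effective lengths, a replicate block, repeat-like genes left out, background handling, reads outside repeat-like genes as library size, and leaving out each library. The TPM values in the files were not used. One gene that the naming rule picked is not reported here.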

Additional observations from a re-analysis of the deposited data

Results flagged for a closer look

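The difference between the combination and the sum of the single-antibody effects was itself tested, as the interaction of anti-B7-H3 and anti-PD1 in the edgeR fit, and it passed for all 10 genes, which is why they are given here. The log2 interaction was -1.47 for Timp2, -1.44 for Mmp12, -1.26 for Timp1, -1.14 for Mmp11, -1.10 for Mmp13, -1.06 for Timp3, -0.997 for Mmp2, -0.86 for Mmp14, -0.71 for Mmp3 and -0.32 for Mmp9. Of all genes tested, 17.3% were called lower in this interaction and 19.1% higher. In 9 of the 10 genes the combination lay below anti-B7-H3 alone and above isotype control. In Mmp11 it lay below each other group.

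The interaction uses all 4 groups and so carries the depth and background of the isotype control libraries, whose part was not tested. That of Mmp3 missed the threshold without isotype control replicate 2 (-0.49, adjusted p = 0.16, edgeR), anti-PD1 replicate 2 (-0.60, 0.0759) or anti-PD1 replicate 3 (-0.65, 0.0534). That of Mmp9 missed it without isotype control replicate 1 (-0.22, 0.213), isotype control replicate 2 (-0.32, 0.053) or anti-PD1 replicate 1 (-0.24, 0.143), with the background subtracted (-0.02, 0.96) and over genes above background in every group (-0.14, 0.345). With the effective-length offset the interaction had the opposite sign for Mmp11 (0.26, 0.866) and Mmp9 (0.07, 0.931), and that of Mmp3 missed the threshold (-0.77, 0.0929). For the other 8 genes no left-out library ended the call.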

How the results depend on the processing

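Of 1219 recomputed log2 values of the 10 genes, 1141 kept their direction and side of the threshold. Another 28 kept their direction but fell out of the calls, and 24 kept it and joined them. The remaining 26 turned direction and were not split by whether they were called. The counts of genes called higher in the combination or under anti-B7-H3 against isotype control, and lower in the combination against anti-B7-H3, stayed within 1.5 times in every alternative. The replicate block changed the side of 0 of 70 values, and Mmp12 under anti-B7-H3 against isotype control was 3.34 with it. Deviations from the group means correlated at -0.04 to 0.04 between libraries of the same number. With so few libraries these deviations may be mostly counting noise, so the correlations cannot decide whether such libraries share a batch.

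With the background subtracted, anti-PD1 against isotype control had 2 genes higher and 1 lower, and the combination had 0 lower against isotype control and 2 against anti-PD1. It moved the median log2 fold change of all genes against isotype control by 0.31 (anti-B7-H3), 0.26 (combination) and 0.19 (anti-PD1), and higher genes made up 60.1%, 62.0% and 61.7% of all calls, and 42.3% in the interaction. It turned under anti-PD1 against isotype control, Mmp2 (-0.348), Mmp9 (-0.204) and Timp3 (-0.0772), Mmp11 under anti-B7-H3 against isotype control (0.153), Mmp2 in the combination against isotype control (-0.000407), and Mmp3 (-0.0345) and Mmp14 (-0.123) in the combination against anti-PD1.

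With reads outside the repeat-like genes as library size, chosen after seeing the data, 10 genes were higher under anti-PD1 against isotype control, 0 were lower in the combination against isotype control, and Mmp11 under anti-B7-H3 against isotype control was 0.634. The median of all genes against isotype control then moved by 0.72 (anti-B7-H3), 0.76 (combination) and 0.56 (anti-PD1), and higher genes made up 76.1%, 79.7% and 82.3% of all calls, against 48.0%, 48.5% and 45.6%. In the combination against anti-PD1 they made up 70.7%, against 49.8%, and in the interaction 19.4%, against 52.5%, as its median moved by -0.52. Under anti-B7-H3 against anti-PD1 they made up 60.6%, against 49.0%. With no filter or with the repeat-like genes left out, Mmp11 under anti-B7-H3 against isotype control was 0.228 and 0.147. Without the filter 16711 of 21947 genes were called under anti-B7-H3 against isotype control, 35.3% of them higher, and DESeq2 called 15111, against 8641 of 13478. All-gene calls in the combination against isotype control were 15865 without the filter and 13860 by DESeq2, against 7727; under anti-B7-H3 against anti-PD1 14594 and 13025, against 8356; in the combination against anti-PD1 11406 and 9541, against 6271; and in the interaction 7352 without the filter, against 4900. Under anti-PD1 against isotype control they were 10021 without the filter, 7931 by DESeq2, 8340 with outside reads as library size, 8566 without the repeat-like genes and 3011 with the background subtracted, against 5164.

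The effective-length offset called 2366 of all genes in the combination against anti-B7-H3, against 5254, 3521 against anti-PD1, against 6271, and 2868 in the interaction, against 4900. It left 0 of the 10 genes lower in the combination against isotype control and 0 against anti-PD1. It turned Mmp9 (-0.481) and Mmp11 (-0.714) under anti-PD1 against isotype control, Mmp14 in the combination against anti-PD1 (-0.151), Mmp11 under anti-B7-H3 against anti-PD1 (0.0797) and the interactions of Mmp9 (0.0706) and Mmp11 (0.263). Another fit, chosen after seeing the data, covered the 4111 genes at least 3 times above background in every group. It gave 1440 to 3005 calls per comparison as fewer genes were tested. Of the members 7 were in this fit, and the filter left out Mmp3, Mmp11 and Mmp13. In it 0 were lower in the combination against isotype control, 0 against anti-PD1 and 6 in the interaction. Mmp11 was the only member called lower in the first 2 of these comparisons in the main fit. Those counts of 0 thus follow from the filter. In the same fit Mmp2 (-0.205) and Mmp9 (-0.172) turned under anti-PD1 against isotype control and Mmp14 (-0.00234) in the combination against anti-PD1. The cause of the other changes was not tested.

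Leaving out each library gave -0.221 to 0.0452 for Mmp11 under anti-B7-H3 against isotype control, -0.0658 to 0.0945 for Mmp2 and -0.021 to 0.123 for Mmp9 under anti-PD1 against isotype control, and -0.0773 to 0.132 for Mmp3 in the combination against anti-PD1. The count of genes lower under anti-B7-H3 against anti-PD1 was 0 to 1, with Mmp11 (-0.429, adjusted p = 0.0274, edgeR) called without anti-PD1 replicate 2. Depth limits isotype control most (49 to 803 reads per gene).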
